A study of Homo sapiens with 6 samples.

Results

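S100 proteins are small dimeric calcium-binding proteins with a pair of EF-hand loops. The genes examined were S100A2, S100A3, S100A4, S100A6, S100A10, S100A11, S100A13, S100A14, S100A16 and S100P, read by symbol from the deposited count table, so 10 of its 23368 symbols. The RNA came from HCT116, an established human line of colon cancer cells. Of its 6 libraries, 3 were from cells that had received siRNA targeting ADNP (siADNP) and 3 from cells given a control siRNA (siControl), and the labels name no other treatment. ADNP is a zinc finger and homeodomain protein that acts on chromatin, and the comparison asks which transcripts differ when it is depleted in this line. For the siRNA dose and the time of harvest the labels used here give no value. The design text calls the libraries biological replicates without saying whether they came from separate cultures, so the p-values reflect only the variation among these libraries, some of it perhaps technical.

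Most S100 genes lie together on human chromosome 1, among genes of the epidermal differentiation complex, while S100P lies on chromosome 4. On binding calcium most S100 dimers expose a surface that grips a target protein, such as an annexin, non-muscle myosin or a kinase. S100A10 is the exception in the family, since its loops no longer bind calcium and it is held in an active shape, in a complex with annexin A2. Several S100 transcripts are abundant in epithelia and in carcinomas, where S100A4 is best known for its association with cell motility and metastasis.

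Libraries held 7396771 to 10265175 reads assigned to genes. ADNP itself stood at 53.9 ± 6.62 CPM (counts per 1000000 gene reads after TMM scaling) with siADNP against 164 ± 8.24 CPM with siControl (SD, n = 3). Its transcript was thus at 32.9% of the control level, a partial depletion of the RNA, and these data do not measure the protein. Of the colon epithelial markers, KRT8, KRT18, KRT19, EPCAM and CDH1 were detected in every library. CDX2 was too, at 7.41 CPM with siControl and 8.49 CPM with siADNP on average. KRT20 had 2 to 10 reads in each library, while VIL1 and CDX1 had 0 reads in all 6 libraries. The siADNP and siControl groups were compared with edgeR's quasi-likelihood test over all 12489 genes with enough reads, and a gene is said to have risen or fallen where its p, adjusted by Benjamini-Hochberg over all of them, was under 0.05. By that test KRT19 fell, with a log2 difference of -0.15 (edgeR adjusted p = 0.0203). The other 5 colon epithelial markers tested did not pass, where 28.3% of all genes tested were called. As bulk RNA was measured, fewer cells that carry a transcript and less of it per cell cannot be told apart.

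With siADNP, S100A3 and S100A4 rose, S100A2, S100A6, S100A10 and S100A11 fell, and S100A13, S100A14 and S100A16 did not pass. S100P was too weak to test. Thus 6 of the 9 members tested were called, where 28.3% of all genes tested were called, 14.6% as higher and 13.7% as lower. The groups did not overlap in 6 of the 9 members, against 40.8% of all genes tested. The 9 members passed a filter on low counts that S100P failed, so these counts are not counts over the whole family. Their median log2 fold change was -0.14, against -0.00128 over all genes tested. The changes were in opposite directions among close neighbours and spanned a log2 fold change of -0.74 for S100A2 to 1.04 for S100A3.

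**Figure D1:**
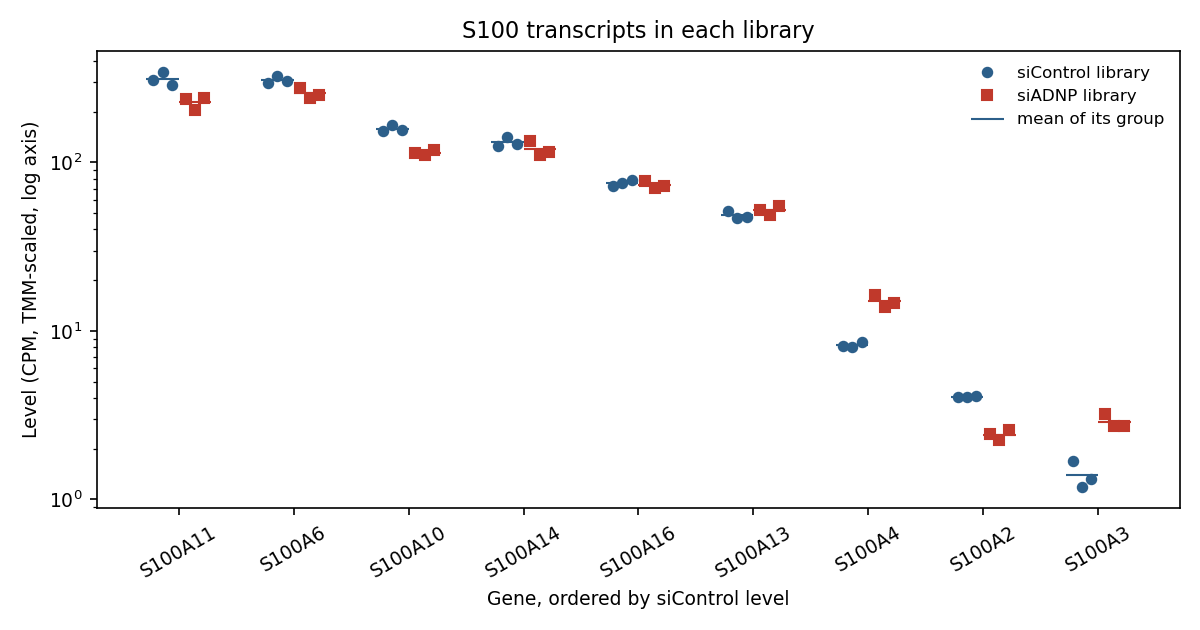
Level of the 9 tested S100 transcripts in each library, in TMM-scaled CPM on a log axis, with the 3 siControl libraries as circles, the 3 siADNP libraries as squares and a line at each group's mean. The siADNP squares lie above all circles for S100A4 and S100A3, below all circles for S100A11, S100A6, S100A10 and S100A2, and overlap the circles for S100A14, S100A16 and S100A13.

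S100A4 (metastasin), which binds non-muscle myosin IIA and is associated with motility, showed the rise with the most reads behind it. The siControl libraries held 8.18, 8.07 and 8.56 CPM, and those with siADNP 16.4, 13.9 and 14.6 CPM. Each siADNP library lay well above each siControl library. The mean was 8.27 ± 0.258 CPM with siControl and 15.0 ± 1.29 CPM with siADNP (SD, n = 3), and edgeR gave a log2 difference of 0.86 ± 0.13 (SE, adjusted p = 5.81e-06). The reads behind these values were 359 over the siADNP group and 226 over the siControl group. The rise passed in all 17 alternatives run, with adjusted p from 2.66e-08 to 0.000192.

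S100A4 is also a marker of fibroblasts and of some blood cells, so the markers of both were read in the same libraries. The fibroblast list of 7 genes summed to 11.1 to 14.6 CPM with siADNP and 13.5 to 17.2 CPM with siControl, with DCN and LUM at 0 reads in all 6 libraries. That sum is mostly COL1A1, which did not pass (8.24 against 7.55 CPM on average), and ACTA2, smooth muscle actin, which fell (3.81 against 7.96 CPM, log2 difference -1.04, edgeR adjusted p = 0.000127). The blood cell list of 6 genes summed to 10.2 to 11.3 CPM with siADNP and 6.99 to 8.52 CPM with siControl, mostly CD68, a lysosomal protein (9.44 against 7.04 CPM on average, log2 fold change 0.42, adjusted p = 0.0366 in edgeR). PTPRC, the pan-leukocyte marker, had 7 reads in all with siADNP and 6 with siControl. The libraries were made from a cell line and not from a tissue. The part of other cells in the S100A4 values was not tested.

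S100A3, a cysteine-rich member that binds zinc and is known from the hair cuticle, rose from a very low level. It had 25, 24 and 20 reads in the siADNP libraries and 15, 12 and 11 reads in the siControl libraries, or 3.21, 2.72 and 2.71 CPM against 1.68, 1.18 and 1.33 CPM. The groups did not overlap. In edgeR the log2 difference was 1.04 ± 0.30 (SE, adjusted p = 0.00778). The call ended in DESeq2's Wald test, which gave nearly the same difference, 1.05, at an adjusted p of 0.0716, in a range of 0.00675 to 0.0716 over the 17 alternatives.

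In the GENCODE annotation S100A3 lies within the span of S100A4 on the same strand, because some S100A4 transcripts start upstream of S100A3. Reads of both genes may therefore not be fully separated, and the sources name no annotation for the counting. S100A4 had 5.12 to 5.40 times the reads of S100A3 in the siADNP libraries and 4.87 to 6.83 times in the siControl libraries. These ranges overlap.

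The promoter windows of the pair that rose are shown because the genes are close neighbours on the same strand. Each window runs from 250 bases before to 50 bases after the RefSeq start site, written in the direction of the gene, with the sequence and coordinates of RefSeq on GRCh38.p14, a newer build than the hg19 build of the counts. All 10 members matched an entry. Capitals mark every match, on either strand, to the GC box GGGCGG, the AP-1 site TGANTCA, the TATA box TATAAA or the CCAAT box CCAAT. The S100A4 window is chr1:153545757-153546056 (minus strand) and the S100A3 window is chr1:153549209-153549508 (minus strand).
S100A4: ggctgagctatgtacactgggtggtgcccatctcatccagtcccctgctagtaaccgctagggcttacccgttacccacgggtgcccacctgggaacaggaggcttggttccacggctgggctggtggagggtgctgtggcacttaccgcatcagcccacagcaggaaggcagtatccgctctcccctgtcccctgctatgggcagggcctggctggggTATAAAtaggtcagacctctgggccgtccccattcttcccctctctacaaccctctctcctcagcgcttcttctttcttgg
S100A3: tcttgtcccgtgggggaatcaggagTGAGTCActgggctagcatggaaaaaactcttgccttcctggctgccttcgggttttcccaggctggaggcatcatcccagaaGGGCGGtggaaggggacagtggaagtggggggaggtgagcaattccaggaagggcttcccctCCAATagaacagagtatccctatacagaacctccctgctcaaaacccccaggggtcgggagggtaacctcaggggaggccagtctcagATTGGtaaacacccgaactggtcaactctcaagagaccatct
The S100A4 window held a TATA box that begins at -31 relative to the start site and no other match. The S100A3 window held no TATA box but an AP-1 match at -225, a GC box at -142 and 2 CCAAT matches. Over 35116 RefSeq promoter windows of this length, 11.5% held the TATA box, 7.71% the AP-1 site, 45.0% the GC box and 34.6% the CCAAT box. A match is a description of the letters and not a site shown to be bound.

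S100A10 (p11), the light chain of the annexin A2 complex that brings plasminogen to the cell surface, fell. With siControl the 3 libraries gave 154, 166 and 156 CPM, against 114, 110 and 118 CPM with siADNP. The groups lay far apart compared with their spread. Means were 159 ± 6.17 CPM with siControl and 114 ± 4.03 CPM with siADNP (SD, n = 3). The transcript stood at 71.8% of control, a log2 difference of -0.48 ± 0.05 (SE, edgeR adjusted p = 1.07e-08).

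S100A11 (calgizzarin), which binds annexin A1 and is linked to membrane repair and growth control in epithelial cells, fell to a like share of control. It was measured at 308, 346 and 288 CPM with siControl and at 239, 204 and 241 CPM with siADNP. The highest siADNP library lay below the lowest siControl library. Means were 314 ± 29.6 and 228 ± 20.6 CPM (SD, n = 3), so that 72.4% of the control level was left (log2 difference -0.47 ± 0.06 SE, edgeR adjusted p = 1.47e-07).

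S100A6 (calcyclin), which is induced by growth factors and binds the ubiquitin ligase adaptor CACYBP, fell by a smaller step. Control libraries gave 296, 328 and 304 CPM and siADNP libraries 278, 242 and 252 CPM. Here too the groups did not overlap, although siADNP replicate 1 came close to siControl replicate 1. At 83.2% of control, the log2 difference was -0.27 ± 0.05 (SE, edgeR adjusted p = 0.000186). The falls of S100A6, S100A10 and S100A11 passed in all 17 alternatives run.

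S100A2, a target gene of p53 that is known in squamous epithelia and often silenced in tumours, fell from a low level. It had 19, 20 and 19 reads in the siADNP libraries and 36, 41 and 34 reads in the siControl libraries, or 2.44, 2.27 and 2.58 CPM against 4.04, 4.03 and 4.10 CPM. The groups were well separated, at few reads. It stood at 59.8% of control, with a log2 difference of -0.74 ± 0.24 (SE, edgeR adjusted p = 0.0183). The call ended in DESeq2's Wald test (-0.75, adjusted p = 0.121) and without siADNP replicate 2 (-0.69, adjusted p = 0.0670), in a range of 0.0146 to 0.121 over the 17 alternatives.

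The promoter windows of the members that fell are printed for comparison with the pair that rose, in the same form. They are chr1:151993810-151994109 for S100A10, chr1:152036955-152037254 for S100A11, chr1:153535942-153536241 for S100A6 and chr1:153565795-153566094 for the upstream start site of S100A2, all on the minus strand of GRCh38.p14.
S100A10: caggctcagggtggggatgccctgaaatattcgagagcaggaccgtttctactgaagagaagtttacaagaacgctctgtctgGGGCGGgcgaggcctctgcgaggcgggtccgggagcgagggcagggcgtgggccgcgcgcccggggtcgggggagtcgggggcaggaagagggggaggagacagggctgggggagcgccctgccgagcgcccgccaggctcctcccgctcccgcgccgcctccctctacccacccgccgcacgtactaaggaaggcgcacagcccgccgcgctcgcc
S100A11: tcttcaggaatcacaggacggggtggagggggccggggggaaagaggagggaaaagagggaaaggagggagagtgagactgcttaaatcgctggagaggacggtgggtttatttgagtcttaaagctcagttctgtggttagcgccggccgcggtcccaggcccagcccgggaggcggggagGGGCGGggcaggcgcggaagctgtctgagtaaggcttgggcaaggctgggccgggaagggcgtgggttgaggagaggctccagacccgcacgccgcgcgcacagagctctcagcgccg
S100A6: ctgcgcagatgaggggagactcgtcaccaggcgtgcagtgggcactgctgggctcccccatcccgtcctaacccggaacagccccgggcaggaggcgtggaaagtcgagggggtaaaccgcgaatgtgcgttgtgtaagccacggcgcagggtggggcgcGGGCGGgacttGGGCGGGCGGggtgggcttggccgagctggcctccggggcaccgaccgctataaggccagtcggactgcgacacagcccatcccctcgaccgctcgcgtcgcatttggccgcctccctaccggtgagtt
S100A2: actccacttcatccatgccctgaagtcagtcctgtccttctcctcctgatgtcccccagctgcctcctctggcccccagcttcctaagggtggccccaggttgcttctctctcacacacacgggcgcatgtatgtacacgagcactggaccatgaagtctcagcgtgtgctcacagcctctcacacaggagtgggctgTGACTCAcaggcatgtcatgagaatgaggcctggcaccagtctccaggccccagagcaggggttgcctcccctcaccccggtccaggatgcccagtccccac
The S100A10 and S100A11 windows each held 1 GC box, at -167 and -68, and the S100A6 window held 3, of which those at -79 and -75 overlap. The S100A2 window held an AP-1 match at -52 and no GC box. The window of its other start site, chr1:153563838-153564137, held no match. It had 4 CpG, with a ratio of observed to expected CpG of 0.15. The windows held 32 CpG in S100A10, 31 in S100A6 and 22 in S100A11, where the median window held 14. S100A4 had 8, S100A3 5 and S100A2 5. The ratio of observed to expected CpG was 0.840 in S100A10, 0.866 in S100A6 and 0.781 in S100A11, against 0.293 in S100A4, 0.212 in S100A3 and 0.189 in S100A2, with a median of 0.579 over all windows. Of the members that did not pass, S100A14 had 5 CpG and a ratio of 0.174. S100A16 had 3 and 8 CpG in its 2 windows, with ratios of 0.118 and 0.338. S100A13 had 19, 11 and 12 CpG in its 3 windows, with ratios of 0.848, 0.375 and 0.429. The ratio of 0.848 lay between those of S100A10 and S100A6, which fell. The S100A13 window with 19 CpG and the S100A16 window with 8 each held 1 GC box. That S100A16 window also held CCAAT matches at -237 and -29. The S100A13 window with 11 CpG held a TATA box at -29 and a CCAAT match at -116. S100A14 held no match, and S100P, which was not tested, held a TATA box at -28. A TATA box or CCAAT match was thus not particular to the pair that rose.

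The other tested members did not pass the test. S100A14, a membrane-associated member of epithelial cells, gave 126, 141 and 128 CPM with siControl and 133, 111 and 115 CPM with siADNP. siADNP replicate 1 lay among the siControl libraries while the other siADNP libraries lay below them. The log2 difference was -0.14 ± 0.06 (SE, edgeR adjusted p = 0.0876). It passed without siADNP replicate 1 (-0.22, edgeR adjusted p = 0.00947) and with an offset for GC content (-0.17, adjusted p = 0.0323), in a range of 0.00947 to 0.422 over the 17 alternatives.

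S100A16, a broadly expressed member with 1 working EF-hand, gave 72.5, 75.5 and 78.4 CPM with siControl and 77.4, 70.4 and 72.3 CPM with siADNP. The groups overlapped, with a log2 difference of -0.04 ± 0.06 (SE, edgeR adjusted p = 0.665). S100A13, which takes part in the release of FGF1 and interleukin 1 alpha without a signal peptide, stood at 52.3, 48.5 and 55.0 CPM with siADNP and 51.5, 47.1 and 47.4 CPM with siControl. Its log2 difference was 0.09 ± 0.07 (SE, edgeR adjusted p = 0.359). Neither passed in any of the 17 alternatives.

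S100P, a member known from placenta and from pancreatic and colorectal carcinoma, was at the limit of detection. It had 1, 0 and 2 reads in the siADNP libraries and 0 reads in each siControl library. The 3 reads correspond to 0.125 CPM, unscaled, among the 23909834 gene reads of the siADNP group (95% exact Clopper-Pearson interval 0.0259 to 0.367, for counting error only). By the same kind of interval, a count of 0 allows up to 0.134 CPM among the 27538755 gene reads of the siControl group. No difference was therefore detectable at this depth.

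Levels can be set against each other only per length, here as CPM per kilobase of the principal coding transcript in GENCODE. In siControl, S100A11 (529 ± 49.9 CPM per kilobase; SD, n = 3) and S100A6 (460 ± 24.8) led, and their libraries overlapped. S100A10 followed with 132 ± 5.14 and S100A14 with 108 ± 6.85. S100A13 and S100A16 came next with 70.9 ± 3.55 and 65.9 ± 2.54, only just apart between 68.4 as the highest S100A16 library and 68.7 as the lowest S100A13 library. With the longest transcript as the length, S100A13 would stand at 22.3 CPM per kilobase, below S100A16, and no other place in the order changes. S100A4 stood at 13.8 ± 0.430, S100A2 at 4.06 ± 0.0375 and S100A3 at 1.63 ± 0.301. With siADNP, S100A11 and S100A6 stood at 384 ± 34.7 and 383 ± 27.3 CPM per kilobase. There S100A3 (3.36 ± 0.335) came to lie above S100A2 (2.43 ± 0.156), with no overlap between them. That order rests on 25, 24 and 20 reads of S100A3 and 19, 20 and 19 of S100A2, at lengths of 856 and 998 bases. Whether it exceeds counting error was not tested.

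Summed over the family, the level lay lower in each siADNP library than in each siControl library. The summed level of the 10 members was 1021, 1117 and 1017 CPM with siControl and 916, 805 and 874 CPM with siADNP. This sum is set by its abundant members: S100A6, S100A10 and S100A11 made up 74.2%, 75.2% and 73.7% of the family's reads with siControl and 68.9%, 69.1% and 69.9% with siADNP.

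Along chromosome 1 the change did not run in 1 direction. In RefSeq gene order S100A10 and S100A11 come first, then the epidermal genes, then S100A6, S100A5, S100A4, S100A3, S100A2, S100A16, S100A14, S100A13 and S100A1. Both rises, S100A4 and S100A3, lie between S100A6 and S100A2, which fell. For every 1000 reads of S100A6, S100A4 had 27.7, 24.6 and 28.1 reads with siControl and 59.1, 57.5 and 58.0 reads with siADNP. This ratio combines the rise of S100A4 and the fall of S100A6 given above. Its separation between the groups is therefore no further evidence, and it was not tested.

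**Figure D2:**
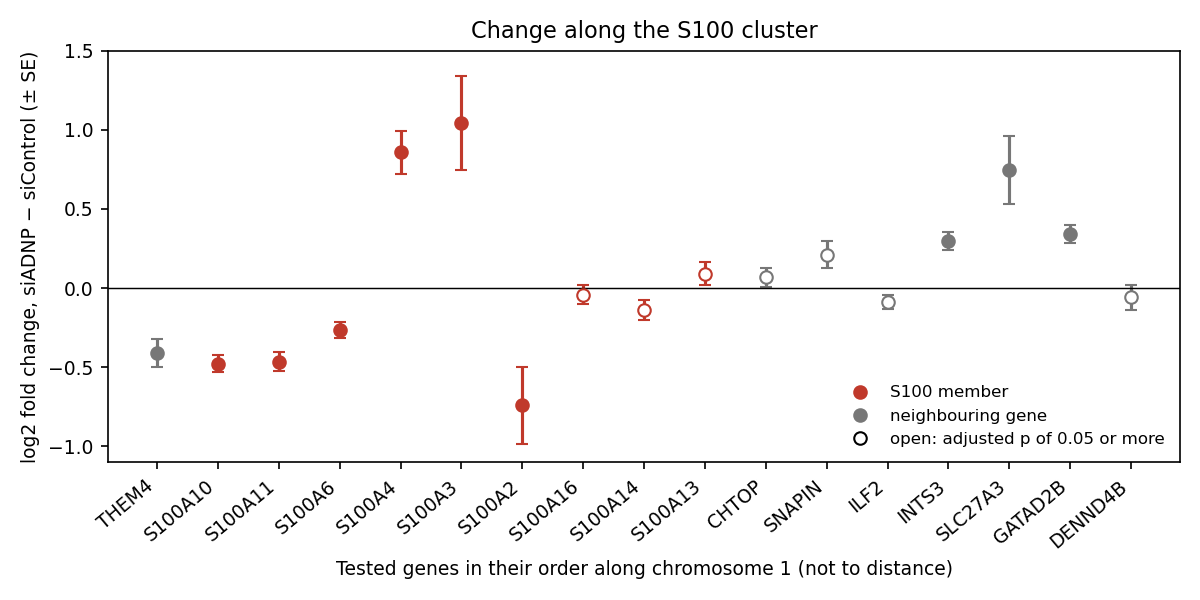
Log2 fold change (siADNP minus siControl, ± SE, edgeR) of each tested gene from THEM4 to DENND4B, in RefSeq order along chromosome 1 and not to distance, with S100 members in red and their neighbours in grey. Filled points passed at an adjusted p under 0.05, and S100A4 and S100A3 (0.86 and 1.04) stand between the falls of S100A6 and S100A2 (-0.27 and -0.74).

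Between S100A10 and S100A1 RefSeq lists 63 protein-coding genes, of which 59 are in the count table under that symbol. The 9 tested genes among these 59 were all S100 members, and 33 had 0 reads in all libraries. Genes for the cornified envelope and keratohyalin had few reads or none: LOR, FLG and SPRR3 had 0, IVL 1 read with siControl only, and SPRR2D 3 reads over the siADNP group and 10 over the siControl group. TCHH, which encodes trichohyalin, had 10 and 29 reads. Of 29 neighbouring genes listed in and around the cluster, 8 could be tested: 3 rose, 1 fell and 4 did not pass, where 28.3% of all genes tested were called, with a median log2 fold change of 0.14. THEM4, a thioesterase gene next to S100A10, fell by a log2 difference of -0.41 ± 0.09 (SE, edgeR adjusted p = 0.000480). On the far side of S100A1, GATAD2B of the NuRD complex, INTS3 of the Integrator complex and the fatty acid transporter SLC27A3 rose with 0.34, 0.30 and 0.74. SNAPIN and ILF2, which lie closer to the S100 genes, did not pass (0.21 and -0.09, adjusted p = 0.0560 and 0.163 in edgeR).

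S100 genes outside the 10 members were silent or nearly so. Of 11 such genes, 7 had 0 reads in all libraries, among them S100A8, S100A9 and S100A12, the calgranulins of neutrophils and monocytes. S100A1, known from heart muscle, had 3, 1 and 6 reads in the siADNP libraries and 0 in each siControl library. Against a floor of 3 reads over the siControl group, it was at least 3.84-fold higher with siADNP, and at least 2.22-fold higher without siADNP replicate 3, which holds 6 of its 10 reads, an alternative chosen after seeing the data. These bounds take the siADNP reads as exact, and counting error allows a lower fold. In a 95% exact Clopper-Pearson interval, the 10 reads stand for 0.201 to 0.769 CPM unscaled. By the same kind of interval, 0 reads allow up to 0.134 CPM with siControl. No test was made. S100A1 overlaps S100A13 on the opposite strand, and their reads cannot be told apart without strand. S100A5 had 6 reads over the siADNP group and 1 over the siControl group, a ratio of 6.91 with an exact 95% interval of 0.838 to 318 for counting error only. S100A7 (psoriasin) had 2 reads and S100B 1 read, all with siADNP, and no difference was detectable for them.

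ANXA2 and ANXA1, the annexin partners of S100A10 and S100A11, fell too. ANXA2 had 765 CPM with siControl and 658 CPM with siADNP (log2 difference -0.22 ± 0.05 SE, edgeR adjusted p = 0.000569), and ANXA1 had 342 and 202 CPM (-0.76 ± 0.05 SE, edgeR adjusted p = 1.73e-13). The balance between the transcripts of each pair was read as the ratio of reads in the same library. It needs no scaling between libraries but is no molar ratio. These RNA ratios do not measure the protein complexes, and they restate the fold changes of each pair. S100A10 had 0.200, 0.221 and 0.202 reads per ANXA2 read with siControl and 0.165, 0.178 and 0.178 with siADNP. All siADNP libraries lay lower, with a log2 difference of -0.26. S100A11 had 1.31, 1.01 and 1.08 reads per ANXA1 read with siADNP and 0.893, 0.988 and 0.870 with siControl. Here the siADNP libraries lay higher, with a log2 difference of 0.30, and 0.19 without siADNP replicate 1. For both ratios the two-sided exact permutation test gave p = 0.1 (0.1 adjusted over the 2 ratios), the smallest that 3 libraries against 3 allow, so neither can pass at 0.05.

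**Figure D3:**
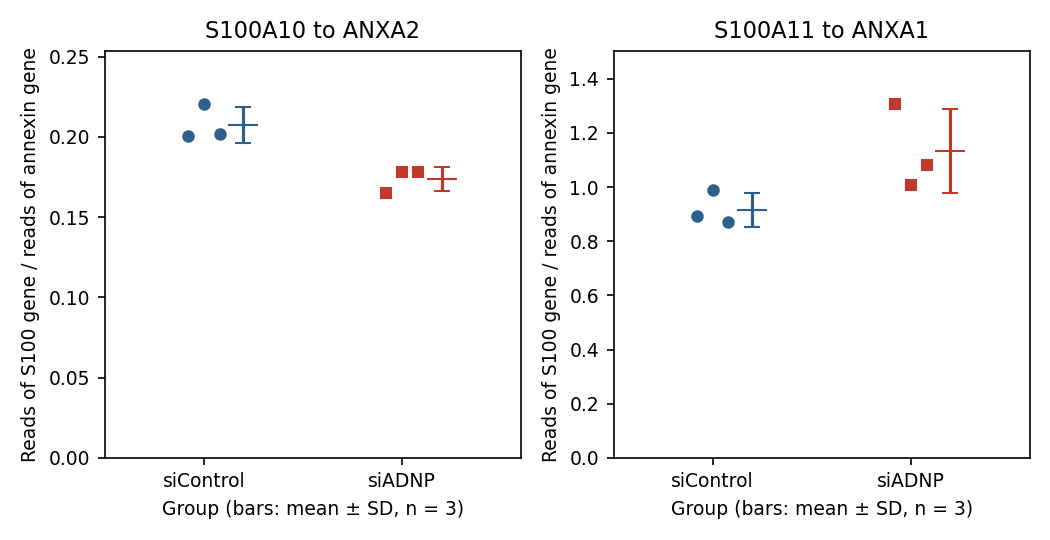
Reads of S100A10 per read of ANXA2 and of S100A11 per read of ANXA1 in each library, from 0, with circles for siControl, squares for siADNP and bars for the mean ± SD (n = 3). The S100A10 ratio lies lower in the siADNP libraries (0.174 ± 0.00758 against 0.208 ± 0.0112) and the S100A11 ratio higher (1.13 ± 0.155 against 0.917 ± 0.0629).

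Among 26 testable genes for proteins described as S100 partners, 9 rose, 6 fell and 11 did not pass, where 14.6% of all genes tested were higher and 13.7% lower. The median log2 fold change was 0.02, so the partners did not move in 1 direction. MDM2, the p53 ubiquitin ligase, which several S100 proteins bind, fell by a log2 difference of -0.30 ± 0.05 (SE, edgeR adjusted p = 1.03e-05), and ANXA5 fell with -0.26, while ANXA6 rose with 0.29. On the side of plasminogen activation, in which the S100A10 complex acts as a receptor, the activator PLAT and the urokinase receptor PLAUR rose, by 0.71 ± 0.13 and 0.45 ± 0.10 on the log2 scale (SE, edgeR adjusted p = 5.54e-05 and 0.000401). MYH9, the non-muscle myosin heavy chain bound by S100A4, had a log2 difference of 0.00321 (edgeR adjusted p = 0.969). MYH10, another non-muscle myosin heavy chain on the list, rose with 0.17 (edgeR adjusted p = 0.00966). CACYBP, the partner of S100A6, had a log2 difference of 0.13 (edgeR adjusted p = 0.0694). AGER, the cell surface receptor of extracellular S100 proteins, was near the limit of testing, at 2.87 CPM with siADNP and 2.94 CPM with siControl (adjusted p = 0.910, edgeR), and TLR4 had 1 read in all.

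**Figure D4:**
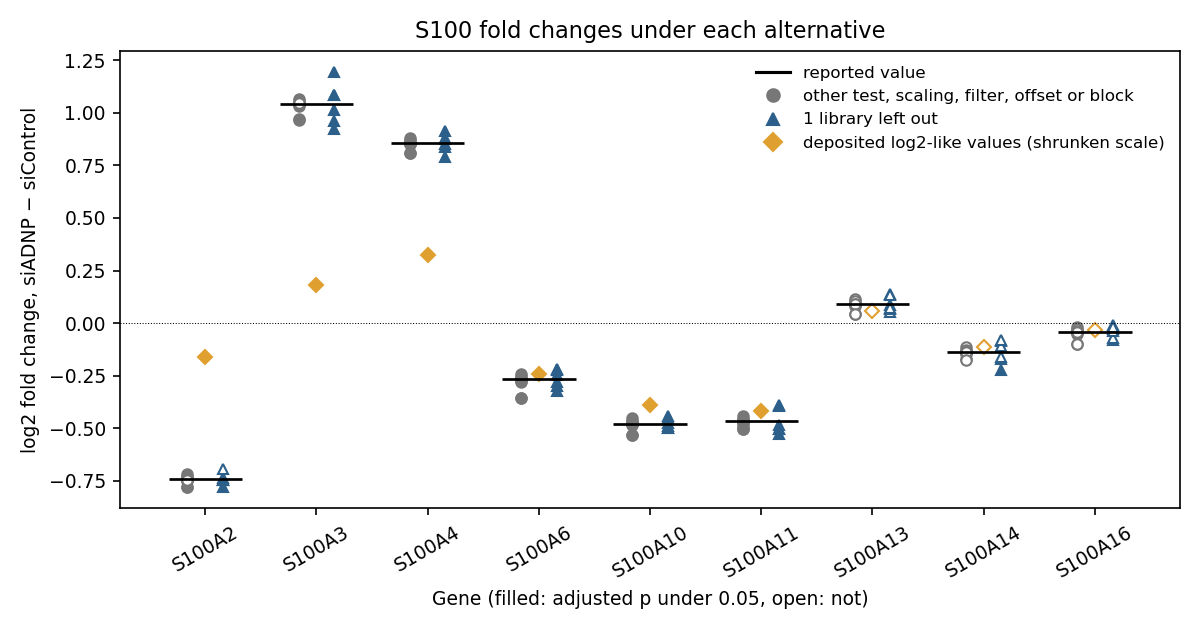
Log2 fold change (siADNP minus siControl) of the 9 tested members as reported (black line), under other tests, scalings, filters, offsets or the block (circles), without 1 library (triangles) and in the deposited log2-like values, whose scale is shrunken (diamonds); filled symbols passed at an adjusted p under 0.05. No member changes side of 0, and symbols are open for some settings of S100A2 and S100A3 and filled for some of S100A14.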

How the data were processed

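The data are deposited counts of reads per gene symbol from 6 total RNA libraries and a deposited table of log2-like values. Per the submitters' processing notes, STAR, HTSeq and DESeq2 were used on hg19; the notes hold no version, annotation or strand setting, so overlapping and antisense genes may share reads. The log2 values that the authors deposited (r = 1 with a recomputed variance-stabilizing transformation) served in 1 alternative only. Lines that name no gene took 71.7% to 73.6% of all reads per library (reads without a feature, ambiguous or without a unique alignment) and were left out.

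The test was edgeR 4.0.16 under R 4.3.3 (TMM, filterByExpr with a minimum count of 10, glmQLFit, glmQLFTest, two-sided), siADNP minus siControl, and checked on simulated data. Standard errors came from the log2 fold change and the F statistic (its size over the root of F). Levels are CPM with TMM scaling. DESeq2 1.42.0, limma 3.58.1 on the log2 values, other scalings and filters, offsets for GC content and transcript length (known for 90.1% of tested genes), a replicate block and leaving out each library were alternatives. No libraries were duplicates: the chi-square per degree of freedom between libraries of a group was 1.80 to 3.04. The members and the lists of partners, neighbours, other EF-hand proteins and cell type markers were chosen with earlier results of these data known. Genes were named by a rule: members, other S100 genes with reads, the 6 neighbours and 6 partners and 4 EF-hand genes with the smallest p, ratio partners, and markers. MYH9, MYH10, CACYBP, AGER, TLR4, LOR, FLG, SPRR3, IVL, SPRR2D, TCHH, S100A8, S100A9, S100A12 and the markers with values were named outside it, after their values were seen. Figures were drawn with matplotlib 3.10.9.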

Additional observations from a re-analysis of the deposited data

How the results depend on the processing

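Directions of all 9 tested members were the same in the 17 alternatives run. The 6 called members stayed called in all but DESeq2's Wald test, where S100A2 and S100A3 did not pass and 1 member was called higher, and the fit without siADNP replicate 2, where S100A2 did not pass. Over all genes DESeq2 called 2171, of which 1100 were higher and 1071 lower, against 1824 higher and 1714 lower in edgeR. On the deposited log2 values S100A3, S100A4 and S100A2 had smaller differences (0.18, 0.33 and -0.16), because that scale shrinks weakly expressed genes, and still passed. No scaling moved the median of all genes by over 0.1.

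Same-numbered libraries did not deviate together (correlations of -0.0352 to 0.0238), so the replicate number was not taken as a pairing. With the replicate block, 1694 genes were called higher and 1542 lower, and 6 members. For the 2 annexin ratios the replicate block left the difference at -0.26 and 0.30, with an exact sign permutation p of 0.25, the smallest 3 pairs allow. Leaving out 1 library moved the S100A10 ratio between -0.28 and -0.21 and the S100A11 ratio between 0.19 and 0.38. At the depth of these libraries S100A2 and S100A3 had 11 to 41 reads each per library, and S100P at most 2.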

Other observations

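Other EF-hand calcium proteins gave a mixed picture. Of 36 listed, 31 could be tested: 5 rose, 5 fell and 21 did not pass, with a median log2 fold change of 0.05 and a called share close to that of all genes tested (28.3%). CAPN2, the catalytic subunit of calpain 2, fell with -0.32 ± 0.05 (adjusted p = 2.05e-06, edgeR), and the endocytic recycling protein EHD1 with -0.48. RCN1, a calcium-binding protein of the endoplasmic reticulum, rose with 0.33 ± 0.05 (adjusted p = 7.96e-06, edgeR), and the myosin light chain MYL9 with 0.60.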
